A study of Mus musculus with 16 samples.

Results

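The miR-106b/93/25 cluster is a set of 3 microRNA (miRNA) hairpins inside the gene Mcm7, which encodes a subunit of the DNA replication helicase. Its members were chosen by name as every array feature for an arm of mmu-miR-106b, mmu-miR-93 or mmu-miR-25. This gave 5 of the 650 features on the array, namely the main arms miR-106b, miR-93 and miR-25 and the opposite arms miR-106b* and miR-93*. An asterisk in the array's names marks the arm of the hairpin then taken as the lesser product. An opposite arm of miR-25 was not among the features.

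The study asked how phenobarbital, a drug that activates CAR (a nuclear receptor) and promotes liver tumours in mice, changed liver miRNAs with and without beta-catenin in hepatocytes. Total RNA from whole liver of male C3H mice was hybridised to 16 single-channel Agilent miRNA arrays, 4 in each of 4 groups. The groups were WT control, WT phenobarbital, CTNNB1KO control and CTNNB1KO phenobarbital. Phenobarbital was given at 0.05% in the diet for 12 weeks, and controls received a phenobarbital-free diet, although their treatment agent is labelled as water. CTNNB1KO mice carried loxP sites around exons 3 to 6 of Ctnnb1, the beta-catenin gene, and Cre recombinase driven by the hepatocyte-specific albumin promoter. By this design other liver cells should keep the gene, which was not checked. The labels do not say whether WT mice carried either transgene, nor how old any animal was. Nor do they tie each array to an animal of its own. The p-values therefore reflect only how far these arrays differ, part of which may be technical. A miRNA array measures neither Ctnnb1 nor Mcm7 mRNA, so neither the knockout nor the host transcript was checked.

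The 3 hairpins are cut from an intron of the host transcript and so share its transcription, while each mature miRNA can be processed and lost at its own rate. A miRNA finds its messenger RNA targets mainly through its seed, bases 2 to 8. In human tumour cells miR-106b and miR-93 are known to repress the cell cycle inhibitor p21, and miR-25 the pro-apoptotic protein Bim. The host gene is a classical target of E2F, the transcription factor family that drives entry into S phase, and miR-106b and miR-93 in turn repress E2F1.

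The mature sequences show which members can share targets and which other array features resemble them. They are RefSeq sequences for the build GRCm38.p6, written 5′ to 3′ with the seed in capitals, and all 5 measured arms were matched.
miR-106b: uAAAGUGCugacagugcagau
miR-93: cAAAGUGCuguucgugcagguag
miR-25: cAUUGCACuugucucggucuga
miR-106b*: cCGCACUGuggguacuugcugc
miR-93*: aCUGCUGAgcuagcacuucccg
The seed of miR-106b and miR-93 is the same, while miR-25 and both opposite arms each have another. Paralogous clusters elsewhere in the genome make miRNAs with these seeds, and the ones detected on the array are printed for comparison.
miR-20a: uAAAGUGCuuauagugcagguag
miR-20b: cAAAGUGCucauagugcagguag
miR-92a: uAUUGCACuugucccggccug
miR-106b and miR-93 had the same base at 16 of 21 positions counted from the 5′ end. miR-106b and miR-20a matched at 18 of 21 positions, miR-93 and miR-20b at 20 of 23, and miR-25 and miR-92a at 18 of 21. How far the array's probes tell such pairs apart was not tested.

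In GRCm38.p6 the cluster lies on the minus strand of chromosome 5. The mature miR-106b is at chr5:138165787-138165807, miR-93 at chr5:138165574-138165596 and miR-25 at chr5:138165332-138165353. The hairpins of miR-106b, miR-93 and miR-25 follow each other in the direction of transcription, with gaps of 126 and 118 bases, and together span 498 bases. All lie within the annotated span of Mcm7, chr5:138164583-138172111. The RefSeq table holds promoter windows for 2 starts of Mcm7, each from 250 bases before to 50 bases after the start. The window of the outer of these 2 starts, chr5:138171834-138172133 on the minus strand, is shown as promoter sequence of the host gene, with a match to an E2F site in capitals. That start lies inside the annotated span of Mcm7 and not at its end.
Mcm7 promoter: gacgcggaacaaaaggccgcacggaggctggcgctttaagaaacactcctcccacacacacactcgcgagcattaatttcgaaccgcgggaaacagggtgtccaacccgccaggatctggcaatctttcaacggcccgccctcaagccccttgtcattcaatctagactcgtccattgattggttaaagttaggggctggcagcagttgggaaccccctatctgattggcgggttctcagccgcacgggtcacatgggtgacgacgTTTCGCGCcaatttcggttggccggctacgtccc
Both strands were searched for the E2F site as TTTCGCGC or TTTGGCGC, which gave 1 match in this window, starting at base 267, and 0 in the window of the inner start. Of the 32851 promoter windows of the same length, 0.813% held such a match. The core CTTTGA, bound by the TCF factors that partner beta-catenin, had 0 matches in either window, against 16% of all windows. These are letter matches and not binding sites.

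The values are log2 expression values as deposited. Viral miRNA features, which mouse liver should lack, set a dim floor of 3.98, and 141 of the 611 mouse features had a mean above it in at least 1 group. Each array had between 100 and 133 mouse features above the floor, and arrays of one group correlated between 0.966 and 0.996 across mouse features. The hepatocyte miRNAs miR-122, miR-192 and miR-194 were above the floor in all 4 groups, as the label liver requires. CTNNB1KO phenobarbital replicates 1 and 2 stood apart by their muscle miRNAs, with miR-1 at 8.17 and 6.03 against at most 3.86 on any other array.

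The 3 main arms were above the floor on every array and the 2 opposite arms on none. miR-106b* lay between 3.10 and 3.53 over the 16 arrays and miR-93* between 3.03 and 3.63. Their values are those of background, and in the 7 comparisons made neither opposite arm passed.

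**Figure D1:**
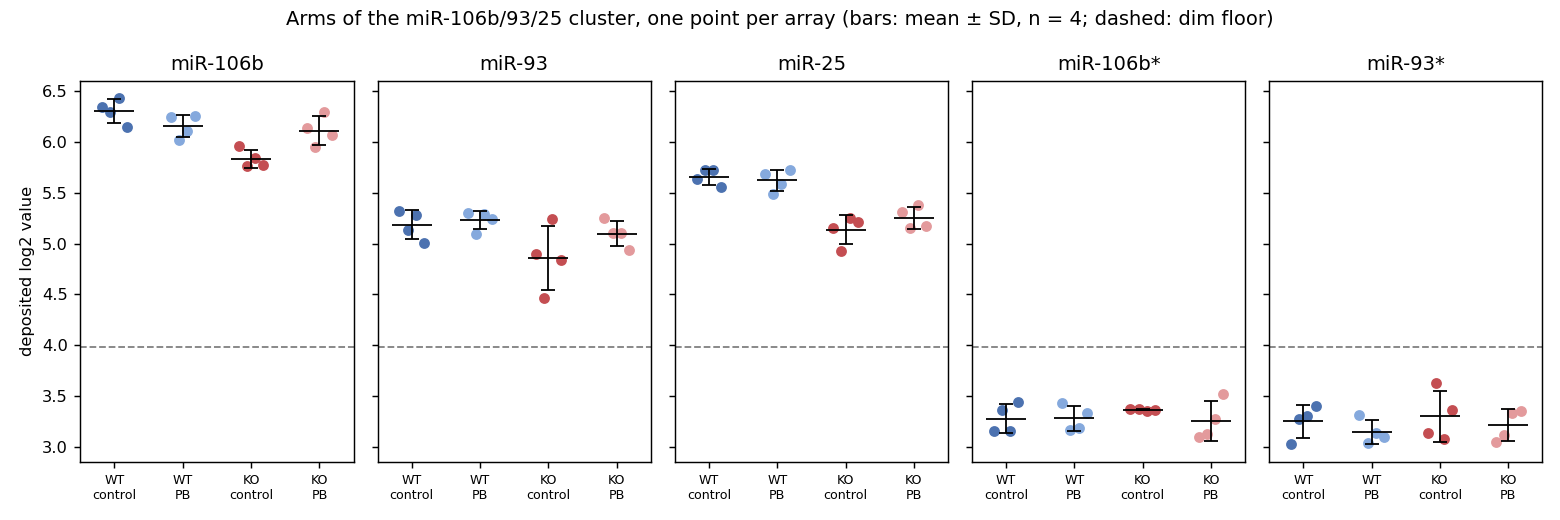
Deposited log2 values of the 5 cluster arms, one point per array in replicate order, with the mean ± SD of 4 arrays as bars and the dim floor of 3.98 dashed; KO is CTNNB1KO and PB phenobarbital. The 8 CTNNB1KO arrays of miR-25 sit between 4.93 and 5.37, all under the 8 WT arrays at 5.49 to 5.72, and both opposite arms sit under the floor.

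miR-25, whose seed is shared with miR-92a, was lower in every CTNNB1KO liver sample than in every WT sample. In WT controls its log2 values were 5.63, 5.72, 5.72 and 5.56, and in CTNNB1KO controls 5.15, 4.93, 5.25 and 5.21. With phenobarbital they were 5.69, 5.49, 5.58 and 5.72 in WT and 5.31, 5.15, 5.37 and 5.17 in CTNNB1KO. The lowest WT array, a phenobarbital one at 5.49, lay above the highest CTNNB1KO array, also a phenobarbital one at 5.37. All 8 CTNNB1KO arrays lay under all 8 WT arrays for 4 of the 611 mouse features (0.655%, or 2.84% of the 141 above the floor). The other 3, named because the count is small, were the erythroid miRNAs miR-144 and miR-451, and miR-27b.

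The group means of miR-25 were, in falling order, 5.66 ± 0.08 in WT controls, 5.62 ± 0.11 in WT phenobarbital, 5.25 ± 0.11 in CTNNB1KO phenobarbital and 5.14 ± 0.14 in CTNNB1KO controls (SD, n = 4 arrays each). The first 2 means, both of WT, and the last 2, both of CTNNB1KO, were close beside the spread of their arrays, and neither pair passed a test. Averaged over both diets, miR-25 fell by 0.44 ± 0.08 on the log2 scale in CTNNB1KO (SE; limma adjusted p = 0.00194). This is a ratio of 0.735 with a 95% confidence interval of 0.651 to 0.831. Over all mouse features 5.56% passed in this averaged comparison, 4.09% in the lower direction, which was 14.9% of the features above the floor. The call held under each of the 9 alternative settings and without each of the 16 arrays in turn, with adjusted p-values from 0.000138 to 0.00932.

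Within one diet the difference in miR-25 was less certain. In controls it fell by 0.52 ± 0.12 (limma adjusted p = 0.0428), when 0.818% of mouse features passed, but it no longer passed when any 1 of 14 single arrays was left out (adjusted p up to 0.206). Some of these were phenobarbital arrays, which enter the control comparison only through the shared spread. Without 1 of those the difference stayed at -0.52, with adjusted p-values from 0.0514 to 0.0757. Under phenobarbital the group means share no array with those of the control comparison, though the estimate of the spread is shared. The difference was -0.37 ± 0.12 and did not pass (limma adjusted p = 0.0982), while 3.76% of features did. All 4 CTNNB1KO phenobarbital arrays nevertheless lay under all 4 WT phenobarbital arrays, as was the case for 7.04% of all features and 21.3% of those above the floor.

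miR-106b, which carries the seed of the miR-17 family, had lower values in CTNNB1KO controls than in WT controls. They were 6.34, 6.29, 6.42 and 6.14 in WT controls and 5.96, 5.76, 5.84 and 5.77 in CTNNB1KO controls. All 4 CTNNB1KO control arrays lay under all 4 WT control arrays, as they did for 3.44% of mouse features and 12.8% of those above the floor. The means were 6.30 ± 0.12 and 5.83 ± 0.09 (SD, n = 4), and the log2 difference of -0.47 ± 0.13 did not pass (limma adjusted p = 0.126). It passed under 4 of 10 alternative settings, including the one that tested only features above the dim floor (adjusted p = 0.0111).

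With phenobarbital miR-106b was 6.24, 6.02, 6.11 and 6.25 in WT and 6.13, 5.95, 6.29 and 6.06 in CTNNB1KO. These groups overlapped, the highest and the lowest of the 8 arrays both being CTNNB1KO. Their means were 6.15 ± 0.11 and 6.11 ± 0.14, a difference of -0.05 with a 95% confidence interval of -0.31 to 0.22. Averaged over both diets the genotype difference was -0.26 ± 0.09 (limma adjusted p = 0.126).

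miR-93, the other member with the AAAGUGC seed, had the widest spread among the main arms in CTNNB1KO controls. It stood at 5.32, 5.13, 5.28 and 5.01 in WT controls and at 4.89, 4.46, 5.24 and 4.83 in CTNNB1KO controls. Of the CTNNB1KO arrays 3 lay under all WT arrays, and replicate 3 lay among them. The difference was -0.33 ± 0.14 (limma adjusted p = 0.557). Without single arrays it lay between -0.45 and -0.20, and was smallest in size without CTNNB1KO control replicate 2. That array was the lowest of all 16 for miR-93, miR-25 and miR-106b alike. Among CTNNB1KO controls it also had the highest levels of the leukocyte miRNAs miR-142-3p, miR-146a and miR-155 (9.55, 6.30 and 4.12). The leukocyte miRNAs miR-223, miR-142-5p and miR-150 were higher on replicate 1 (7.83, 5.18 and 3.41) than on replicate 2 (7.73, 4.83 and 3.27). On CTNNB1KO phenobarbital replicate 3 miR-142-3p was 9.05, while miR-106b and miR-25 were the highest of the CTNNB1KO arrays (6.29 and 5.37). On replicate 4 of that group miR-142-3p was 8.99, with miR-106b at 6.06 and miR-25 at 5.17. Its miR-93, at 4.94, was the lowest of that group. The part of leukocyte RNA in these values was not tested.

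With phenobarbital miR-93 was 5.30, 5.10, 5.29 and 5.24 in WT and 5.25, 5.10, 5.10 and 4.94 in CTNNB1KO. The groups overlapped, and the difference was -0.13 ± 0.14 (limma adjusted p = 0.826). Averaged over both diets it was -0.23 ± 0.10 (adjusted p = 0.309).

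No main arm passed the test for phenobarbital in either genotype. In WT liver, where 2.78% of mouse features passed, the log2 differences were -0.15 for miR-106b (95% confidence interval -0.41 to 0.12), 0.05 for miR-93 (-0.26 to 0.35) and -0.04 for miR-25 (-0.29 to 0.21). For each arm the WT phenobarbital and WT control arrays overlapped. In CTNNB1KO liver all 3 differences were above 0: 0.28 for miR-106b (0.01 to 0.54), 0.24 for miR-93 (-0.06 to 0.54) and 0.11 for miR-25 (-0.13 to 0.36). No mouse feature passed there by limma (0%), although 32 (5.24%) had an unadjusted p under 0.05. Among them was miR-106b (unadjusted p = 0.0424, limma adjusted p = 0.875), for which 3 of 4 CTNNB1KO phenobarbital arrays lay above all 4 CTNNB1KO controls.

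Averaged over both genotypes, where 1.8% of features passed, phenobarbital differences were 0.07 ± 0.09 for miR-106b, 0.14 ± 0.10 for miR-93 and 0.04 ± 0.08 for miR-25. The interaction compares the phenobarbital effect in CTNNB1KO with that in WT. It was 0.42 ± 0.18 for miR-106b (limma adjusted p = 0.482), 0.19 ± 0.20 for miR-93 and 0.15 ± 0.17 for miR-25 (adjusted p = 0.896 and 0.921), and 1.15% of mouse features passed. So a genotype difference that depends on diet was not shown for any main arm.

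**Figure D2:**
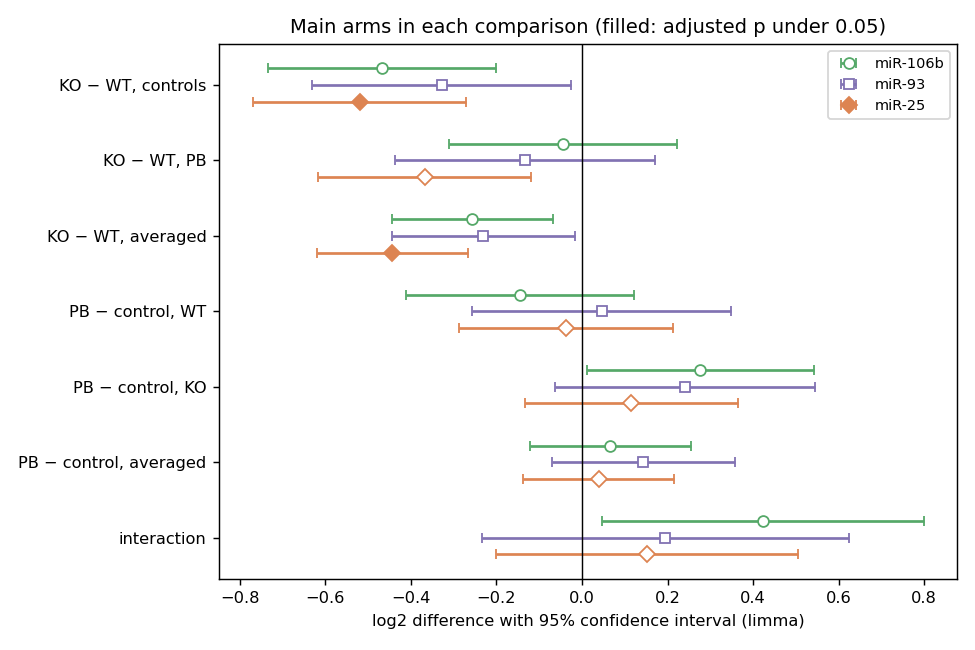
Log2 differences of the 3 main arms in the 7 comparisons, with 95% confidence intervals from limma; filled symbols passed at an adjusted p under 0.05, KO is CTNNB1KO and PB phenobarbital. Only miR-25 has filled symbols, at -0.52 in controls and -0.44 averaged over both diets.

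The 3 arms varied together from array to array, though not in a fixed ratio. Over the 16 arrays Pearson's r was 0.828 between miR-106b and miR-25, 0.749 between miR-93 and miR-25 and 0.684 between miR-106b and miR-93. With the group means taken out it was 0.72, 0.719 and 0.435. These are descriptions of arrays that share 4 groups and a common normalization.

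The difference between 2 arms on the same array shows where they moved apart, since the probes themselves cannot be set against each other in level. The log2 value of miR-106b minus that of miR-25 was 0.64 ± 0.08 in WT controls and 0.54 ± 0.01 in WT phenobarbital (SD, n = 4). It was 0.70 ± 0.14 in CTNNB1KO controls and 0.86 ± 0.06 in CTNNB1KO phenobarbital. Under phenobarbital the WT arrays, at 0.53 to 0.55, lay apart from the CTNNB1KO arrays, at 0.80 to 0.92, while in controls the genotypes overlapped. miR-93 minus miR-25 was -0.47 ± 0.12 and -0.39 ± 0.08 in WT controls and WT phenobarbital. In CTNNB1KO it was -0.28 ± 0.20 in controls and -0.15 ± 0.12 with phenobarbital. For this pair too the genotypes lay apart under phenobarbital, at -0.48 to -0.29 in WT and -0.27 to -0.05 in CTNNB1KO, and overlapped in controls. miR-106b minus miR-93 lay between 0.60 and 1.29 in CTNNB1KO controls, a range that held every array of the other groups. These within-array differences were not tested, and how many other pairs of features lie apart in this way was not counted.

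**Figure D3:**
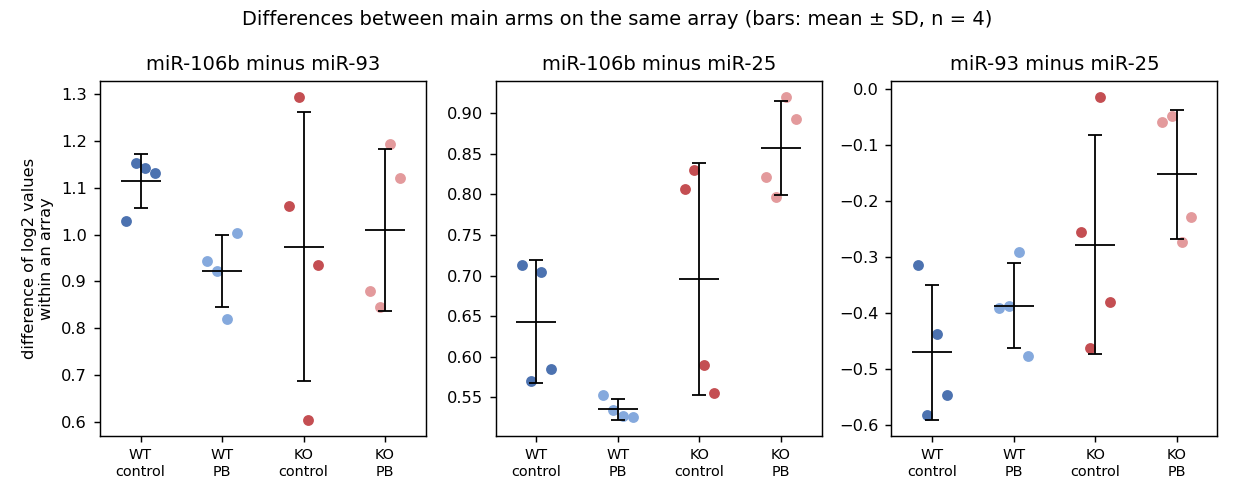
Difference of the log2 values of 2 main arms on the same array, for the 3 pairs of arms, one point per array with the mean ± SD of 4 arrays; KO is CTNNB1KO and PB phenobarbital, and the vertical scales differ between panels. miR-106b minus miR-25 sits at 0.53 to 0.55 in WT phenobarbital and at 0.80 to 0.92 in CTNNB1KO phenobarbital. miR-93 minus miR-25 also lies apart there, at -0.48 to -0.29 in WT and -0.27 to -0.05 in CTNNB1KO.

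The seed-sharing relatives come from the cluster of miR-17 to miR-92a on chromosome 14 and the cluster of miR-106a to miR-363 on the X chromosome, both known for promoting proliferation, and from the single genes of miR-32 and miR-92b. Of the 10 miRNAs listed for the 2 clusters 9 were measured and 5 lay above the floor, namely miR-20a, miR-20b, miR-19a, miR-19b and miR-92a. miR-17, miR-18a, miR-18b, miR-32, miR-92b and miR-363 lay under it in every group. In the genotype comparison averaged over both diets 2 of the 9 fell and none rose, while 4.09% of all mouse features fell. Both were among the 5 above the floor, where 14.9% of features fell. These were miR-19a (-0.54 ± 0.13, limma adjusted p = 0.0193) and miR-92a (-0.51 ± 0.14, adjusted p = 0.0316). The median log2 difference of the 9 was -0.33, against 0.017 over all 611 mouse features, and that of the 5 above the floor was -0.49, against -0.03 over the 141 features above it.

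The miR-106b and miR-93 seed family had 3 measured members outside the cluster, and none of them passed between genotypes. miR-20a differed by -0.40 ± 0.14 (limma adjusted p = 0.109) and miR-20b by -0.33 ± 0.13 (adjusted p = 0.2) averaged over both diets. Of the 4 measured relatives with the seed of miR-25, miR-92a fell, as given above, and the other 3 lay under the floor.

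With phenobarbital all 5 detected paralogs had log2 differences under 0 in WT, from -0.45 to -0.30, and in CTNNB1KO, from -0.53 to -0.13, none of which passed. The median over all features above the floor was -0.008 in WT and -0.03 in CTNNB1KO. Paralogs of one cluster share a transcript, so their signs are not independent. The 3 main arms of the Mcm7 cluster had differences above 0 in CTNNB1KO, as given above. miR-92a had the largest of these paralog differences in CTNNB1KO, with values of 7.71, 6.95, 7.70 and 7.86 in controls and 7.55, 6.92, 6.85 and 6.80 with phenobarbital. CTNNB1KO control replicate 2 was again the lowest control. The difference between the clusters in their response to phenobarbital was not tested.

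Of the 3 erythroid markers, miRNAs abundant in red cells, 2 fell in CTNNB1KO averaged over both diets, as miR-25 did. In that comparison 4.09% of all mouse features fell, and 14.9% of those above the floor. All 3 erythroid markers were above the floor in WT and 2 in CTNNB1KO. Their summed level, as log2, ranged from 11.53 to 12.98 in WT controls and from 11.55 to 12.16 in WT phenobarbital. It ranged from 10.19 to 10.76 in CTNNB1KO controls and from 10.30 to 11.44 in CTNNB1KO phenobarbital. Averaged over both diets miR-451 fell by 1.32 ± 0.19 (limma adjusted p = 0.000113) and miR-144 by 1.59 ± 0.23 (adjusted p = 0.000121) in CTNNB1KO, while miR-486 differed by -0.46 ± 0.14 (adjusted p = 0.0556). Their part in the lower miR-25 was not tested. In whole liver, fewer cells of a type and less of a miRNA per cell cannot be told apart.

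Of the 6 leukocyte markers measured, 4 lay above the floor. Averaged over both diets 3 of the 6 rose in CTNNB1KO and 0 fell, while 1.47% of all mouse features and 5.67% of those above the floor rose. The median log2 difference of the 6 was 0.75, against 0.017 over all mouse features. Their summed level as log2 ranged from 7.73 to 8.35 over the WT groups and from 8.03 to 10.10 over the CTNNB1KO groups. The part of leukocyte RNA in the cluster's values was not tested. Neither hepatocyte marker that could be compared passed. miR-192 differed by -0.11 ± 0.05 (limma adjusted p = 0.357) and miR-194 by -0.24 ± 0.11 (adjusted p = 0.322) averaged over both diets, and miR-122 was not compared because its value was the same on all 4 WT controls. Of the 2 endothelial markers both were detected, with a summed level of 9.96 to 10.45. Of the 5 stellate or mesenchymal markers 3 were detected in WT and 4 in CTNNB1KO, with summed levels of 7.12 to 7.45 and 7.13 to 8.22. Of these 5, miR-214 alone rose in CTNNB1KO averaged over both diets (0.45 ± 0.12, limma adjusted p = 0.0316), and the median log2 difference of the 5 was 0.23. Its part in the cluster's values was not tested.

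The striated muscle markers touched only CTNNB1KO phenobarbital, where their summed level reached 9.23 against at most 5.52 in any other group. On the 2 arrays that carried them, miR-25 was 5.31 and 5.15 and on the other 2 arrays of that group 5.37 and 5.17. Without those 2 arrays miR-25 averaged over both diets still fell, by 0.43 (limma adjusted p = 0.00711).

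The mean of the 3 main arms was 5.71 ± 0.10 in WT controls, 5.67 ± 0.10 in WT phenobarbital, 5.27 ± 0.17 in CTNNB1KO controls and 5.49 ± 0.11 in CTNNB1KO phenobarbital (SD, n = 4). Among 138 other mouse features above the floor, those most like it over the 16 arrays were miR-16 (Pearson's r = 0.847), miR-144 (0.775), miR-451 (0.766), miR-22* (0.721) and miR-486 (0.714). All 3 erythroid markers were thus among the 5. miR-16, a miRNA known to restrain the cell cycle, differed between genotypes by -0.55 ± 0.14 in controls (limma adjusted p = 0.0899) and by -0.05 ± 0.14 under phenobarbital (adjusted p = 0.952), close in size to miR-106b in both.

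With the group means taken out, none of those 5 was among the closest. The features most like the cluster were then miR-152 (0.86), miR-202-3p (0.795), miR-425 (0.761), miR-31 (0.672) and miR-340-5p (0.653). Of these 5, miR-31 rose averaged over both diets in CTNNB1KO (0.89 ± 0.18, limma adjusted p = 0.00397), opposite in sign to the cluster, and the other 4 did not pass. These likenesses are descriptions over 16 arrays that share a normalization.

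**Figure D4:**
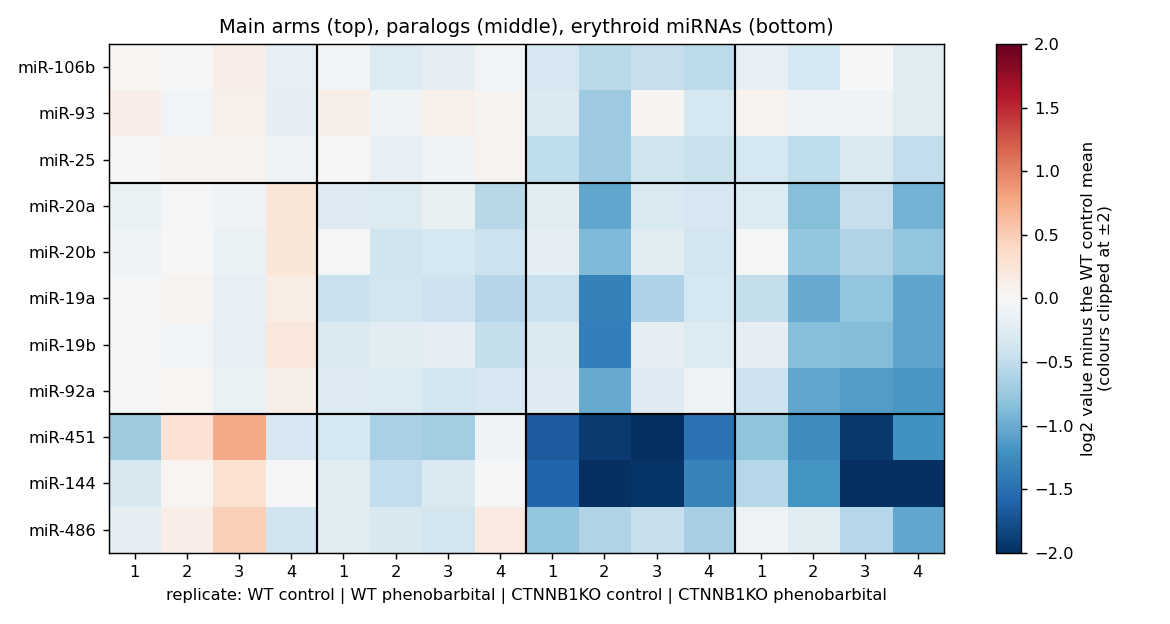
Log2 value of each array minus the WT control mean, in colour, for the 3 main arms, the 5 detected paralogs and the 3 erythroid miRNAs, with arrays grouped by genotype and diet and numbered by replicate. The miR-25 row is below 0 on all 8 CTNNB1KO arrays, the paralogs are lowest in CTNNB1KO control replicate 2 and in several CTNNB1KO phenobarbital arrays, and the miR-451 and miR-144 rows, clipped at ±2, have the largest differences.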

How the data were processed

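The authors deposited 1 table of log2 values for 16 arrays, made with RMA and limma per the submitters' processing notes. Their versions, background correction and filters were not given in the sources used here. Labelling started from 100 ng of RNA with an Agilent kit, per the labels' protocols. As RMA usually equalises arrays, a shift shared by most miRNAs may have been removed. Scanner signals and slide positions were not used, and the number of arrays limits the precision.

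Groups came from sample titles. Group means were fitted to all 611 mouse features with limma 3.58.1 in R 4.3.3, with eBayes and an intensity trend, 12 residual degrees of freedom and two-sided tests. For each feature the 4 groups shared an estimate of the spread. P-values were adjusted by Benjamini-Hochberg over all 611 features at a threshold of 0.05, separately for each of 7 contrasts. "Rose" and "fell" mean passed. The dim floor is the 0.95 quantile of the means of 39 viral features. The fit was also run on simulated data with independent noise, which does not show how it behaves on arrays that share a normalization. Named features are the cluster arms, their seed relatives and paralogs, cell type markers and the 5 features with the highest Pearson correlation to the mean of the main arms. Members and lists were chosen with earlier results of these data known. miR-122 had the same value on all 4 WT controls, so it was not used to compare levels.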

Additional observations from a re-analysis of the deposited data

How the results depend on the processing

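For the 3 main arms, no passing difference changed sign. miR-25 averaged over both diets passed under all 9 settings (-0.46 to -0.42) and without each single array (-0.47 to -0.41). In controls miR-25 did not pass after quantile normalization (-0.53, limma adjusted p = 0.0926). At an unchanged -0.52 it did not pass with viral features included (adjusted p = 0.0503), the replicate block (0.112), only the 2 groups compared (0.225) or without the 2 muscle-bearing arrays (0.065). Without single arrays it lay between -0.56 and -0.45 and passed only without CTNNB1KO control replicate 3 or CTNNB1KO phenobarbital replicate 4. Under phenobarbital miR-25 passed at -0.37 with no trend (0.0148), an unmoderated model (0.0193) and features above the floor only (0.0242), and at -0.39 with array weights (0.0244). Without single arrays it lay between -0.41 and -0.33 and passed without CTNNB1KO control replicate 2 only (0.0453). miR-106b in controls passed at -0.47 with no trend (0.00766), an unmoderated model (0.0173) and features above the floor only (0.0111), and at -0.54 with array weights (0.0181). Averaged over both diets it passed at -0.26 under the same 3 settings (0.0167, 0.026 and 0.017) and at -0.31 with array weights (0.025). The floor filter tests fewer features; the cause was not tested for the rest. No other call of a main arm changed.

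Over all mouse features, the count that passed in controls was 5, and 3 to 9 under other settings or without single arrays. It was 23 under phenobarbital (19 to 49), 34 averaged over both diets (21 to 48), 17 for phenobarbital in WT (12 to 29), 0 in CTNNB1KO (0 to 1), 11 averaged over both genotypes (6 to 16) and 7 for the interaction (2 to 20). Pairing of arrays by replicate number was not shown, though weak correlations cannot exclude it. Of 24 same-numbered pairs 6 correlated over 0.1 (range -0.447 to 0.4), and the own number was the closest in 11 of 48 comparisons. With the replicate block the counts were 4, 23, 29, 17, 0, 9 and 7. The fit of only the groups compared equals the full fit for averaged contrasts and the interaction, so it was run for the other 4.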
